A study of Mus musculus with 6 samples.

Results

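The 9 genes described here encode transport proteins with which the renal proximal tubule takes back sodium, bicarbonate, sulfate, citrate and water: Slc9a3, Slc4a4, Atp1b1, Slc26a1, Slc26a6, Slc13a1, Slc13a2, Slc13a3 and Aqp1. Their probe sets, each a group of short oligonucleotides that reads 1 transcript region on an Affymetrix Mouse430_2 array, were taken wherever the platform annotation gave only 1 gene symbol and that symbol was one of the 9. This gave 23 probe sets for the 9 genes, out of 45037 probe sets and 18193 named genes in the series. RNA came from proximal tubules dissected from Clcn5 knockout mice (3 arrays) and from wild type mice (3 arrays). Clcn5 encodes the endosomal chloride/proton exchanger ClC-5, whose loss in humans causes Dent disease. Between 80 and 100 pieces of tubule, each 2 mm long, were taken per kidney, and the RNA of several mice was combined for each array. The labels give 3 to 4 mice per array and the array records give 7. Strain, age and sex of the mice and the deleted part of Clcn5 are not given in the sources used here, and no treatment is named for either group.

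In the proximal tubule, the basolateral sodium pump keeps cell sodium low, and this gradient drives the entry of sodium, bicarbonate, sulfate, citrate and many other solutes from the lumen. The apical exchanger NHE3 (Slc9a3) swaps sodium for protons, the protons turn filtered bicarbonate into carbon dioxide, and bicarbonate leaves the cell through the basolateral cotransporter NBCe1 (Slc4a4). The SLC13 carriers couple sodium to sulfate or to dicarboxylates and citrate, the SLC26 exchangers swap anions such as sulfate, oxalate, chloride and bicarbonate, and water follows through aquaporin-1.

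Slc13a2, the gene of the apical sodium-dicarboxylate cotransporter NaDC1 that recovers filtered citrate, was the only member whose sole probe set passed the test. For that reason its promoter is shown, as RefSeq gives it on build GRCm38.p6 at chr11:78422185-78422484, minus strand, 250 bases before to 50 bases after the start of the gene. Capitals mark matches to TATAA, the core of a TATA box, and to GTTAA, the first letters of the half-site of HNF1 factors, both searched on both strands.
Slc13a2: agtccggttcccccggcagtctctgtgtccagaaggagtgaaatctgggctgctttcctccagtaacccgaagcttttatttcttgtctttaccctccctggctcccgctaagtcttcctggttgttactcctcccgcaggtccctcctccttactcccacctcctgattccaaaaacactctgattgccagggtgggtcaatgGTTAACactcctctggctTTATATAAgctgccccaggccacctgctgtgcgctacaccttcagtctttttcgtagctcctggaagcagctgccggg
Each of these motifs matched at 2 overlapping positions, starting 28 bases before the gene start for TATAA and 46 bases before it for GTTAA. Among all 32851 promoter windows of this length, 24.9% held TATAA and 24.2% held GTTAA, so either match is common. AGGTCA, the half-site of several nuclear receptors, had no match in this window and was present in 16.3% of all windows. The matches describe letters in the sequence and are not binding sites.

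Values are MAS5 signals on a linear scale, and no detection calls were used, so that a dim signal could not be told from background. The median signal was 40.9, 41.1 and 48.8 on the knockout arrays and 42.6 to 45.3 on the wild type arrays. Knockout array 3, with the highest median, was also the only one run with a different solution lot. Without it the log2 change was −0.33 for Slc13a2 (limma adjusted p = 0.0492) and −0.40 for the Slc13a1 probe set 1430804_at (0.109). Pearson's r of log2 signals, across probe sets, lay between 0.973 and 0.984 for arrays of the same genotype and between 0.964 and 0.975 for arrays of different genotype. Clcn5 was lower on all 4 of its probe sets in the knockout arrays, by 2.83-fold to 7.31-fold (limma adjusted p up to 0.00229). Markers of the S1 and S2 segments had summed signals of 22036 to 24027 in knockout and 23607 to 26638 in wild type arrays. Of these 7 genes 2 were lower. Their mean log2 signal, relative to its mean over the 6 arrays, was −0.14 to −0.06 in knockout and 0.02 to 0.16 in wild type. Markers of the S3 segment summed to 19984 to 22279 in knockout and 18062 to 20688 in wild type arrays, with 1 of 7 genes higher. Their mean log2 signal, taken the same way, was −0.02 to 0.10 in knockout and −0.09 to −0.01 in wild type. Markers of later segments were also bright in these dissected samples. Those of the thick ascending limb summed to 11627 to 12825 in knockout and 9865 to 10582 in wild type. Of these 5 genes 1 was higher, Umod, which averaged 5155 in knockout and 3875 in wild type arrays. Kcnj1 had a log2 change of −0.02. Of 5 markers of the distal convoluted and connecting tubule 2 were higher, Pvalb and Calb1, while Slc12a3 had a log2 change of −0.12. That list had a median log2 change of 0.39, and Calb1 averaged 5300 in knockout and 3917 in wild type arrays. Of 10 early response genes, which dissection can induce, 7 were higher, against 2.8% of all 11620 genes read by their brightest probe set. Their summed signals were 8721 to 9048 in knockout and 6193 to 6560 in wild type, and the part of handling was not tested. Leukocyte markers summed to 1748 to 1765 in knockout and 1143 to 1209 in wild type, with 2 of 6 higher. On bulk samples such as these, fewer cells of a type and less transcript per cell cannot be told apart.

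Most probe sets of this transport machinery did not pass the test between genotypes, which does not show that their signals were equal. Of the 20 member probe sets bright enough to be tested, 2 fell in the knockout tubules and none rose (limma, adjusted p under 0.05), against 4.76% of all 22519 tested probe sets in either direction, 2.29% higher and 2.46% lower. The 2 that fell read the sodium-dicarboxylate cotransporter gene Slc13a2 and the sodium-sulfate cotransporter gene Slc13a1. At an unadjusted p under 0.05 there were 4 member probe sets, all lower, where the share over all tested probe sets was 17.3% in either direction and 8.57% lower. The log2 changes of the 20 ran from −0.45 to 0.09 with a median of −0.04, against a median of 0.00 over all tested probe sets. The groups did not overlap for 6 of the 20, all with knockout lower, against 11.2% of all tested probe sets with knockout lower and 12% with knockout higher. The 9 genes were chosen with earlier results of these data known, and several probe sets read the same gene, so they are not independent counts. Their precision was above that of the array as a whole, with a median SE of 0.084 on the log2 scale against 0.135.

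**Figure D1:**
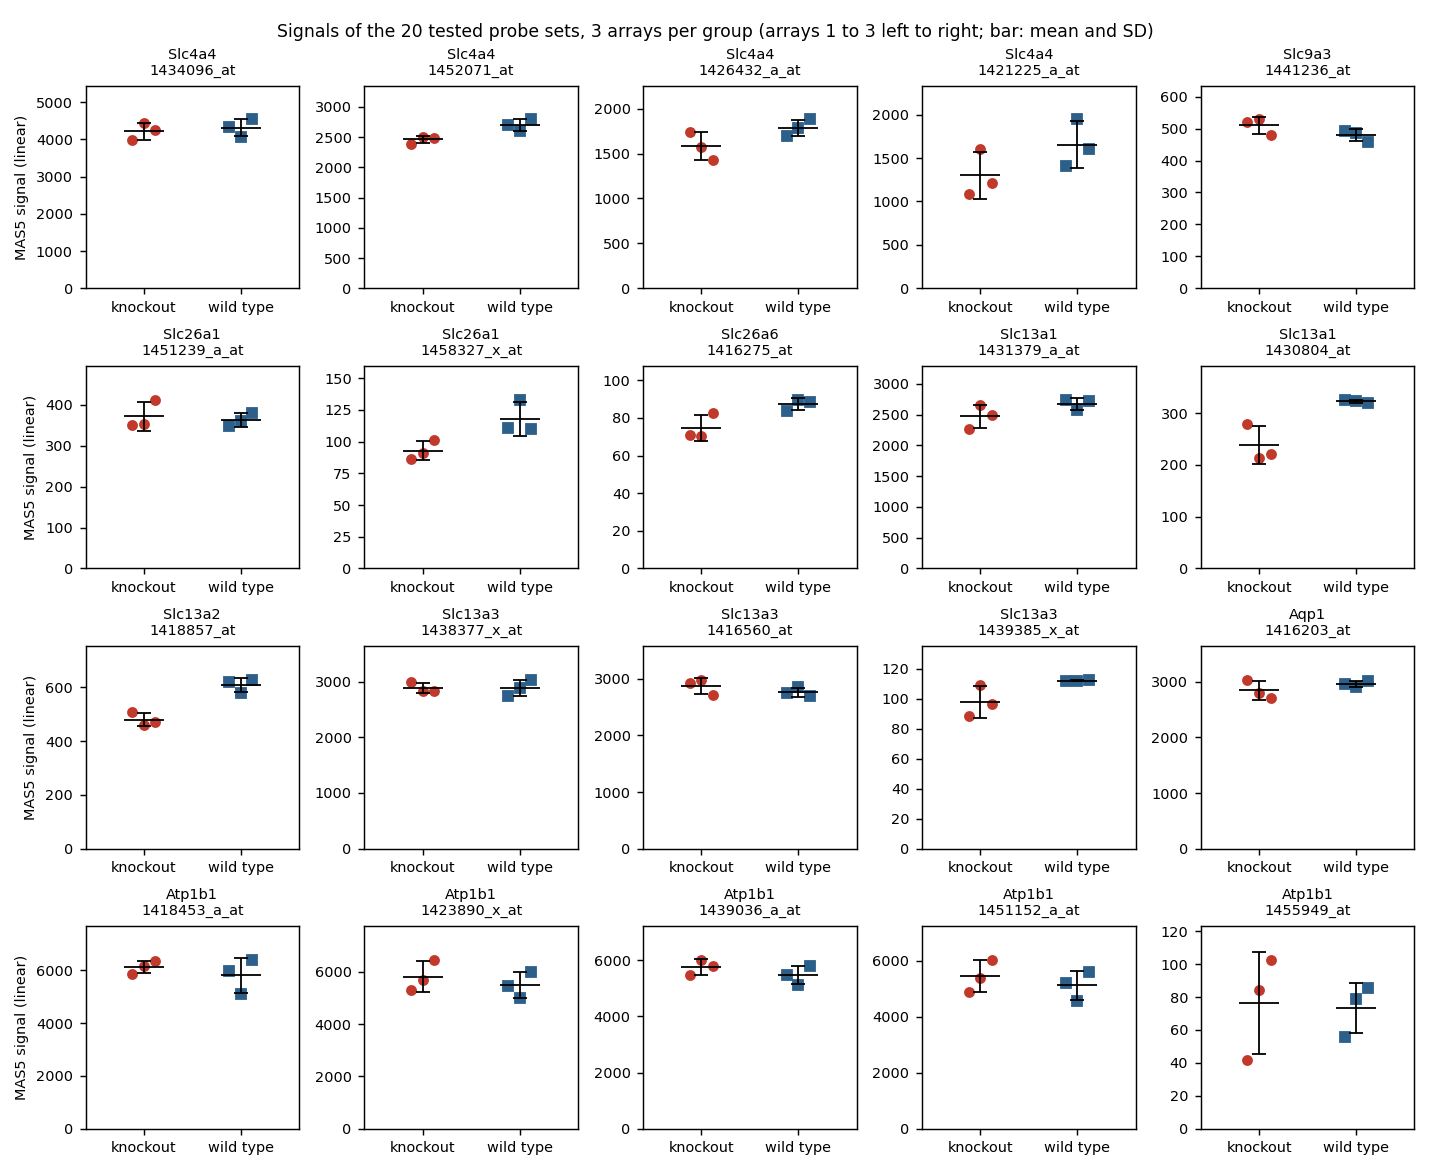
MAS5 signal (linear axis from 0) of each of the 20 tested probe sets, with 3 knockout arrays (circles, left) and 3 wild type arrays (squares, right). Bars are the mean and SD. The groups stand apart most clearly for Slc13a2 and for the Slc13a1 probe set 1430804_at, and overlap for 14 of the 20 probe sets.

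Slc13a2 fell in the knockout tubules. Its probe set 1418857_at had signals of 508, 461 and 470 on the knockout arrays, against 621, 580 and 629 on the wild type arrays. All 3 knockout arrays lay below all 3 wild type arrays, and the lowest wild type value stood above the highest knockout value by more than the SD of either group. The means were 480 ± 24.9 in knockout and 610 ± 26.2 in wild type (SD, n = 3), so that Slc13a2 was 1.27-fold lower (limma adjusted p = 0.0199, log2 change −0.35, SE 0.07). The 95% interval of the log2 change ran from −0.51 to −0.19. Leaving out 1 array at a time, the call ended in 3 of 6 fits: the limma adjusted p was 0.0744 without knockout array 2, 0.0959 without wild type array 1 and 0.0942 without wild type array 3. The log2 change was −0.39 to −0.32 over the 6 fits. S1 and S2 markers had a median log2 change of −0.15 on the same arrays and S3 markers of 0.07, and their part in the fall of Slc13a2 was not tested. RefSeq places a long noncoding gene, Slc13a2os, over Slc13a2. It also places Gm20706 over Slc13a1, Gm35855 and Mkrn1-ps1 over Slc4a4, Gm41003 over Slc9a3 and Gm14437 over Slc13a3.

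Slc13a1, the gene of the apical sodium-sulfate cotransporter NaS1, passed on 1 of its 2 probe sets. Probe set 1430804_at read 280, 213 and 221 on the knockout arrays, against 326, 323 and 320 on the wild type arrays. The wild type arrays were nearly alike, while knockout arrays 2 and 3 were the lowest and knockout array 1 lay between them and the wild type. The means were 238 ± 36.3 in knockout and 323 ± 3.21 in wild type (SD, n = 3), so that this region was 1.37-fold lower (limma adjusted p = 0.0428, log2 change −0.45, SE 0.11). This call ended without knockout array 2 (limma adjusted p = 0.136), knockout array 3 (0.109), wild type array 1 (0.142), wild type array 2 (0.135) or wild type array 3 (0.124), and it strengthened without knockout array 1 (0.00531, log2 change −0.57).

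Probe set 1431379_a_at of Slc13a1 read 2269, 2647 and 2499 on the knockout arrays, against 2742, 2565 and 2722 on the wild type arrays. Knockout array 2 lay above wild type array 2, so the groups overlapped, and the log2 change was −0.12 (SE 0.07, limma adjusted p = 0.465), with a 95% interval of −0.28 to 0.05. Within each array, the log2 ratio of 1430804_at to 1431379_a_at averaged −3.38 ± 0.32 in knockout and −3.05 ± 0.05 in wild type (SD, n = 3). The difference of −0.33 had p = 0.3 by a two-sided exact permutation test, where 3 arrays against 3 can reach no less than 0.1. With both probe sets averaged the gene passed in a fit over genes (log2 change −0.28, limma adjusted p = 0.0148).

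Slc13a3, which encodes the basolateral dicarboxylate carrier NaDC3, was measured by 4 probe sets and none passed. Probe set 1416560_at read 2919, 2984 and 2712 in knockout, against 2747, 2849 and 2697 in wild type (limma adjusted p = 0.74, log2 change 0.05, SE 0.06). Probe set 1438377_x_at read 2986, 2834 and 2826 in knockout, against 2749, 2883 and 3034 in wild type (log2 change 0.00, SE 0.07, limma adjusted p = 0.989). The groups overlapped on both, and the 95% intervals, −0.09 to 0.20 and −0.15 to 0.14 on the log2 scale, correspond to changes of −6.09% to 14.8% and of −9.76% to 10.4%. The third, 1439385_x_at, was dim, with 88.1, 109 and 96.7 in knockout against 112, 112 and 113 in wild type (log2 change −0.20, SE 0.13, limma adjusted p = 0.503). Its groups did not overlap, and the 3 wild type values were almost the same. The remaining probe set, 1439384_at, stayed under the limit for testing, with signals of 2.91 to 10.0 in knockout and 2.20 to 24.3 in wild type.

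**Figure D2:**
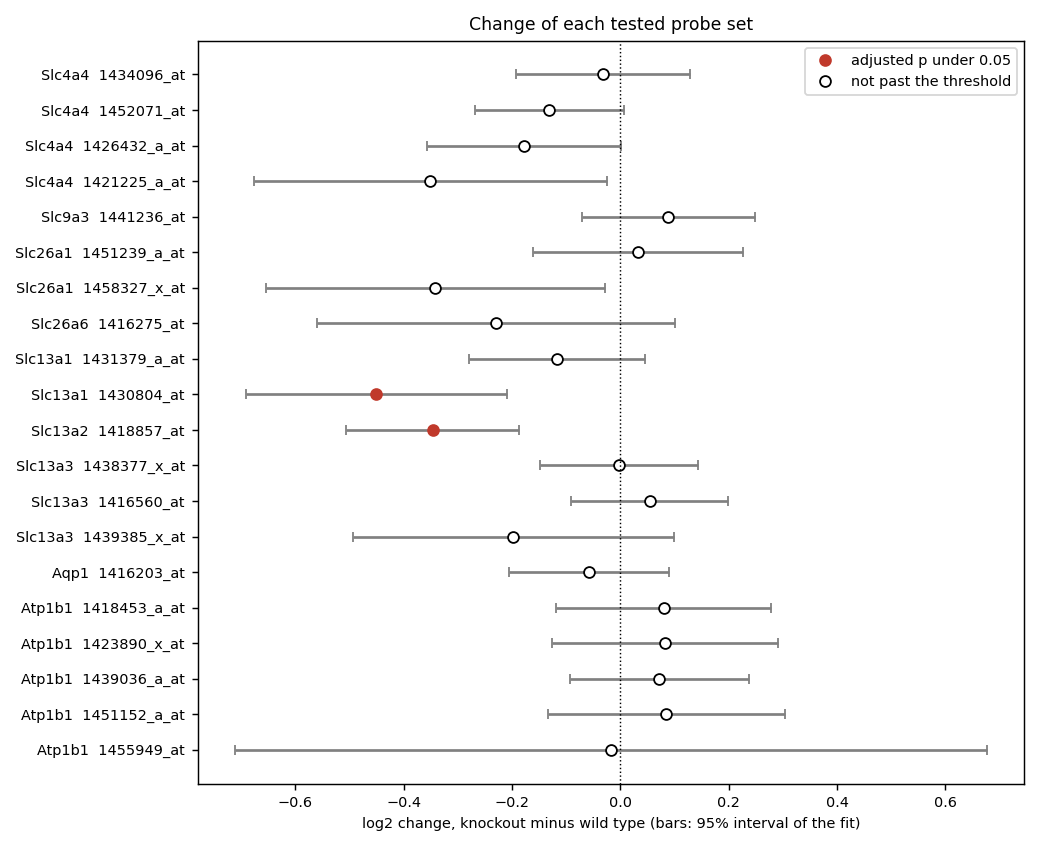
Log2 change, knockout minus wild type, of each tested probe set with its 95% interval (horizontal bars). Filled points, for Slc13a2 and the Slc13a1 probe set 1430804_at, passed an adjusted p of 0.05, and the widest interval belongs to the dim Atp1b1 probe set 1455949_at.

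Slc9a3, the gene of the apical sodium-proton exchanger NHE3, did not pass on its 1 tested probe set. Probe set 1441236_at read 521, 529 and 481 in knockout, against 492, 487 and 459 in wild type. Knockout arrays 1 and 2 were the highest of the 6, but knockout array 3 lay among the wild type arrays. The means were 510 ± 25.7 in knockout and 480 ± 17.8 in wild type (SD, n = 3; log2 change 0.09, SE 0.07, limma adjusted p = 0.594), and the 95% interval ran from −0.07 to 0.25. The second probe set, 1432771_at, was dim, with at most 51.6 in knockout and 48.1 in wild type, and was not tested.

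Slc4a4 encodes NBCe1, through which bicarbonate leaves the cell on the blood side. All 4 of its tested probe sets had lower means in knockout and none passed. Probe set 1434096_at read 3980, 4443 and 4241 in knockout, against 4333, 4072 and 4536 in wild type, with overlapping groups and a log2 change of −0.03 (SE 0.07, limma adjusted p = 0.881). Probe set 1452071_at read 2390, 2503 and 2491 in knockout, against 2704, 2593 and 2790 in wild type. Here every knockout array lay below every wild type array, with a log2 change of −0.13 (SE 0.06, limma adjusted p = 0.317). Probe set 1426432_a_at read 1739, 1578 and 1434 in knockout, against 1697, 1785 and 1880 in wild type, with knockout array 1 above wild type array 1 (log2 change −0.18, SE 0.08, limma adjusted p = 0.294).

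The Slc4a4 probe set 1421225_a_at varied more between arrays than the other 3. It read 1087, 1603 and 1215 in knockout, against 1413, 1944 and 1600 in wild type. In both groups array 2 was the highest, and the groups overlapped (log2 change −0.35, SE 0.15, limma adjusted p = 0.249, 95% interval −0.68 to −0.03). Its log2 change was −0.23 without knockout array 1 or wild type array 2 and −0.51 without knockout array 2, and within the first fluidics station, which held 2 arrays of each group, it was −0.19. On the second station, with 1 array of each group and no test, it was −0.68. With the array number as a replicate block it was called (limma adjusted p = 0.0173), although the numbers did not pair the arrays. The remaining probe set, 1450169_at, was dim and not tested, at 5.73 to 20.4 in knockout and 9.66 to 33.1 in wild type.

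Atp1b1, which encodes the β1 subunit that the sodium pump needs to reach the basolateral membrane, did not pass on its 4 bright probe sets. Probe set 1418453_a_at read 5876, 6153 and 6359 in knockout, against 5962, 5103 and 6397 in wild type. Wild type array 2 was the lowest of the 6 and wild type array 3 the highest, so the groups overlapped (log2 change 0.08, SE 0.09, limma adjusted p = 0.716). The other bright probe sets, 1423890_x_at, 1439036_a_at and 1451152_a_at, had log2 changes of 0.08, 0.07 and 0.08 with SEs of 0.07 to 0.10 and limma adjusted p-values of 0.689 to 0.728. The 95% intervals of the 4 lay between −0.13 and 0.30.

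All 4 bright Atp1b1 probe sets were lowest on wild type array 2, at −0.22 to −0.13 relative to their mean over the 6 arrays on the log2 scale. Markers of the thick ascending limb, where the sodium pump is abundant, were at −0.21 relative to their own mean on that array. Within that list Umod, Slc12a1 and the dim Cldn16 were lowest there, but Kcnj1 was highest, at 1104. Markers of the distal convoluted and connecting tubule were at −0.17, and at −0.13 and −0.07 on wild type arrays 1 and 3. On wild type array 2, S3 markers were at −0.09 and S1 and S2 markers at 0.02. After quantile normalization, which sets all arrays to the same signal distribution, the log2 changes of the 4 probe sets were 0.001 to 0.013. Their SEs were then 0.04 to 0.05. The part of these segments, or of array-wide scaling, in the Atp1b1 values was not tested. Within the first station, which leaves out wild type array 2 and knockout array 3, the changes of 1418453_a_at, 1423890_x_at and 1451152_a_at were −0.04, −0.06 and −0.07. On the second station, which held only wild type array 2 and knockout array 3 and gives no test, they were 0.32, 0.37 and 0.40. Probe set 1439036_a_at was at 0.02 within the first station and 0.17 on the second. The remaining probe set, 1455949_at, was dim, with 42.0, 84.2 and 103 in knockout against 55.9, 78.7 and 85.4 in wild type, and its log2 change of −0.02 had an SE of 0.31 (limma adjusted p = 0.986). RefSeq places Nme7 over part of the Atp1b1 gene.

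**Figure D3:**
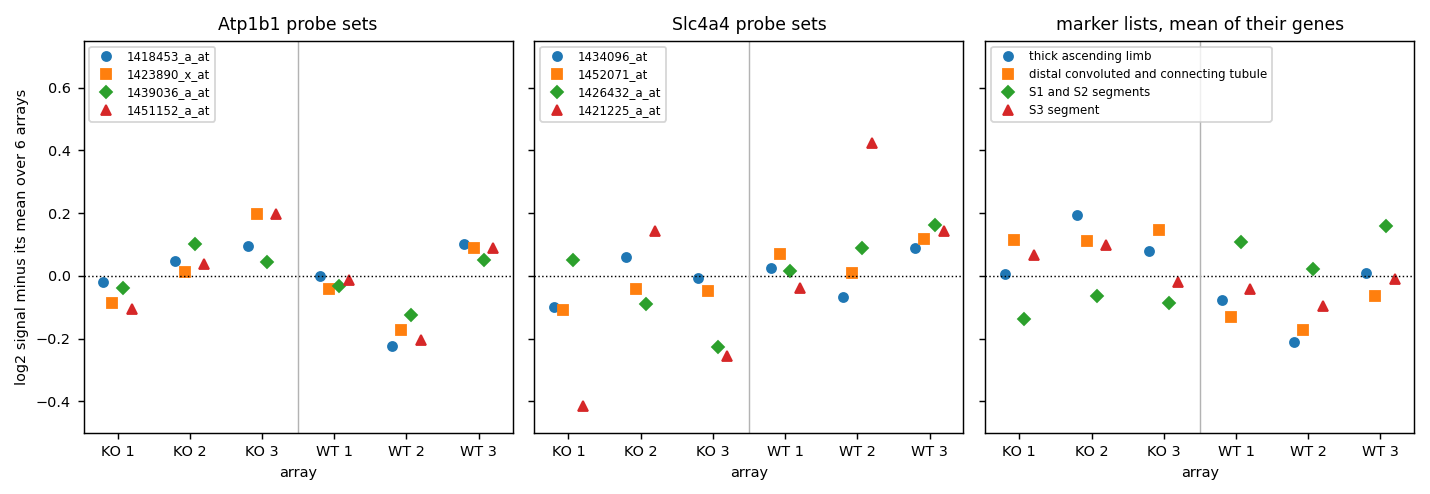
Log2 signal of each array minus the mean over the 6 arrays, for the 4 bright Atp1b1 probe sets (left), the 4 tested Slc4a4 probe sets (middle) and the mean of 4 marker lists (right), with knockout arrays left of wild type arrays. The Atp1b1 probe sets move together and are lowest on wild type array 2, while the Slc4a4 probe set 1421225_a_at departs from the other 3.

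The anion exchanger genes Slc26a1 and Slc26a6 did not pass. Slc26a1 encodes the basolateral sulfate exchanger Sat1. Its probe set 1451239_a_at read 351, 352 and 412 in knockout, against 348, 359 and 380 in wild type, with overlapping groups (log2 change 0.03, SE 0.09, limma adjusted p = 0.898, 95% interval −0.16 to 0.23). Its probe set 1458327_x_at, of a kind in which some probes can also match other genes, read 86.4, 90.8 and 101 in knockout, against 111, 133 and 110 in wild type. Here the groups did not overlap, and the log2 change was −0.34 (SE 0.14, limma adjusted p = 0.243, 95% interval −0.65 to −0.03). The probe sets of Slc26a1 thus differed in sign, and their mean was −0.15 (limma adjusted p = 0.409 over genes). RefSeq places Idua, the gene of a lysosomal iduronidase, over Slc26a1.

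Slc26a6, the gene of an apical exchanger of chloride, oxalate and formate, was read by 1 dim probe set, 1416275_at. It read 70.9, 70.6 and 82.3 in knockout, against 83.7, 89.7 and 88.7 in wild type. Knockout array 3 came close to wild type array 1 without reaching it. The log2 change was −0.23 (SE 0.15, limma adjusted p = 0.482), with a 95% interval of −0.56 to 0.10.

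Aqp1, which encodes the water channel of the proximal tubule and also of the thin descending limb and of capillary endothelium, did not pass on its sole probe set. Probe set 1416203_at read 3037, 2791 and 2715 in knockout, against 2964, 2901 and 3017 in wild type. Knockout array 1 was the highest of the 6 and knockout arrays 2 and 3 the lowest (log2 change −0.06, SE 0.07, limma adjusted p = 0.726, 95% interval −0.20 to 0.09). None of 6 tested endothelial markers passed, with summed signals of 1965 to 2228 in knockout and 1995 to 2044 in wild type. Only 2 of 5 thin limb markers were bright enough to be tested, and neither passed.

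The calls of Slc13a2 and Slc13a1 depended on the settings. Slc13a2 had a log2 change of −0.39 to −0.32 in every fit that gave a test, and its limma adjusted p was 0.108 when the variance prior did not follow intensity. For the Slc13a1 probe set 1430804_at the adjusted p was 0.0953 without a filter on dim probe sets, 0.133 with that prior and 0.0618 with the fluidics station as a block. Within the first station neither passed, with limma adjusted p-values of 0.0761 for Slc13a2 and 0.229 for 1430804_at and log2 changes of −0.37 and −0.40. On the second station, with 1 array of each group and no test, the differences were −0.30 for Slc13a2 and −0.55 for 1430804_at.

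**Figure D4:**
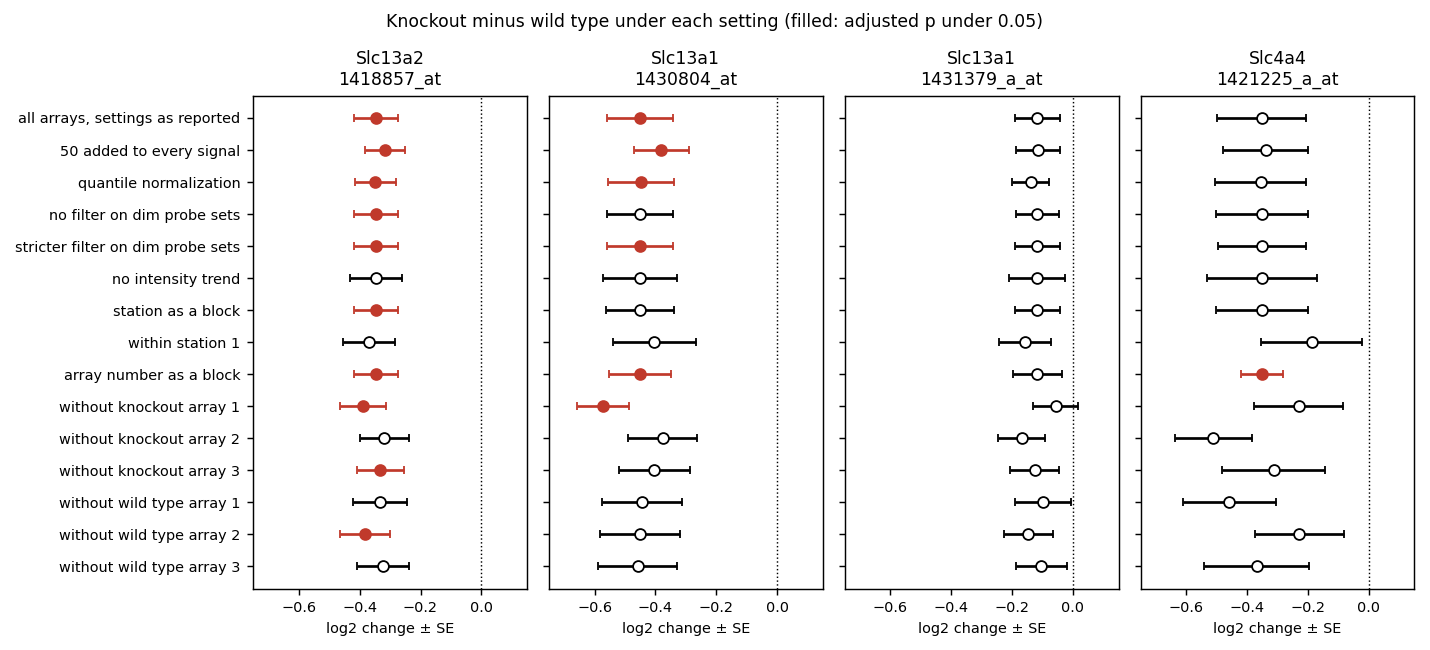
Log2 change, knockout minus wild type, with its SE under each setting for Slc13a2, both Slc13a1 probe sets and the Slc4a4 probe set 1421225_a_at. Filled points have an adjusted p under 0.05: all values for these 4 probe sets lie below 0. The calls of Slc13a2 and 1430804_at end without some single arrays, while 1431379_a_at and 1421225_a_at are called in none of the 6 fits that leave out 1 array.

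The genes whose array-by-array pattern was most like that of Slc13a2 were Vwa8, C1qtnf12, Otud7b, Snn and C8g, by the root mean square difference of mean-centred log2 signals over the 6 arrays, which was 0.029 to 0.035. Their log2 changes were −0.35 to −0.33. Snn averaged 550 ± 18.4 in knockout and 690 ± 17.5 in wild type, and C8g 183 ± 4.31 in knockout and 230 ± 3.16 in wild type (SD, n = 3). The 5 genes were picked for this likeness, so their changes are a description.

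Other genes of sodium, acid-base, sulfate, citrate and water transport were counted in 9 lists of 87 entries, each gene by its tested probe set of highest mean signal. Of 54 tested genes, 4 rose and 3 fell (13.0%), against 5.59% of all 11620 genes read this way, 2.8% in each direction. The lists were chosen with earlier results of these data known, so the share is a description. The median log2 change was 0.04. None passed among 6 tested sodium-proton exchangers and their scaffold proteins (median 0.02), which include the NHE3 scaffolds Slc9a3r1 and Pdzk1 with log2 changes of 0.02 and 0.12. None passed among 6 other SLC13 genes and dicarboxylate partners (median −0.05). The organic anion exchangers Slc22a6 and Slc22a8, which take up drugs in return for dicarboxylate, were at 0.14 and −0.18. None passed among 5 other sodium pump subunits and FXYD regulators (median −0.08), of which Fxyd2, the γ subunit of the renal pump, was at 0.11.

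Bicarbonate and anion exchangers of the collecting duct were among those that rose. Slc4a1, the chloride-bicarbonate exchanger of red cells and of acid-secreting intercalated cells, was 1.49-fold higher. It read 389, 396 and 359 in knockout, against 231, 283 and 254 in wild type, with no overlap (log2 change 0.58, SE 0.09, limma adjusted p = 0.00497). A second Slc4a1 probe set had a log2 change of 0.59, and it was the 1 of 4 tested SLC4 genes to pass (list median 0.22). Slc26a4, pendrin of base-secreting intercalated cells, was the 1 of 4 tested SLC26 genes to pass (list median 0.03). It averaged 899 ± 29.2 in knockout and 745 ± 25.5 in wild type (SD, n = 3; log2 change 0.27, SE 0.06, limma adjusted p = 0.0368), a call that ended without each of the 6 arrays in turn (0.0642 to 0.145). Markers of intercalated cells, which include Slc4a1 and Slc26a4, had summed signals of 2035 to 2110 in knockout and 1645 to 1689 in wild type. All 4 tested were above 0, and the 2 past the threshold were Slc4a1 and Slc26a4 themselves. Atp6v0d2 and Foxi1, the other tested markers, had log2 changes of 0.25 and 0.24 (limma adjusted p = 0.189 and 0.306). Of 5 red cell markers only Slc4a1 itself was bright enough to be tested. The part of these cells in the rises was not tested.

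Among 6 other aquaporins, 1 rose and 1 fell (median 0.09). Aqp6, an intracellular channel of intercalated cells, averaged 523 ± 25.3 in knockout and 336 ± 22.6 in wild type (SD, n = 3; log2 change 0.64, SE 0.08, limma adjusted p = 0.000946). Its other tested probe sets had log2 changes of 0.26, 0.85 and 0.70, none past the threshold. Aqp3, the basolateral channel of principal cells, averaged 626 ± 48.0 in knockout and 905 ± 60.5 in wild type (SD, n = 3; log2 change −0.53, SE 0.08, limma adjusted p = 0.00321), and its other 2 tested probe sets fell as well, by 0.82 and 0.71 on the log2 scale. Markers of principal cells, which include Aqp3, had summed signals of 2063 to 2326 in knockout and 2606 to 2932 in wild type. Of these, 4 of 5 were below 0, and the 1 past the threshold was Aqp3 itself. Aqp2, Fxyd4 and Avpr2 had log2 changes of −0.49, −0.20 and −0.06, and Scnn1g had 0.28. The part of principal cells in the fall of Aqp3 was not tested.

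In the remaining lists 1 gene rose and 2 fell. Among 8 tested claudins, which set the permeability of tight junctions (median 0.20), Cldn1 averaged 159 ± 8.49 in knockout and 98.7 ± 8.29 in wild type (SD, n = 3; log2 change 0.69, SE 0.12, limma adjusted p = 0.00818). Its second probe set was at 0.04, and within the first station the adjusted p was 0.0618. Cldn1 is expressed in parietal cells of the glomerular capsule, and podocyte markers of the same glomeruli had summed signals of 1070 to 1362 in knockout and 856 to 904 in wild type, with 2 of 4 past the threshold. Their part in the rise of Cldn1 was not tested. Cldn2, the cation-permeable claudin of the proximal tubule, was at 0.08 (limma adjusted p = 0.636).

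Among 8 tested genes of ammonia and citrate metabolism (median 0.00), the glutamine transporter gene Slc38a3 fell. It read 103, 119 and 132 in knockout, against 197, 198 and 202 in wild type, with no overlap (log2 change −0.76, SE 0.12, limma adjusted p = 0.00398). Its other tested probe set was dim and at −0.16. Acly, which splits citrate in the cytosol, was at 0.24 (limma adjusted p = 0.0621). Among 7 tested genes of sulfate activation and use (median 0.04), Suox, the mitochondrial sulfite oxidase that makes sulfate, averaged 663 ± 82.1 in knockout and 883 ± 36.3 in wild type (SD, n = 3; log2 change −0.42, SE 0.09, limma adjusted p = 0.0249). The call of Suox held without knockout array 1 and ended without each of the other 5 arrays, with a limma adjusted p up to 0.109.

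**Figure D5:**
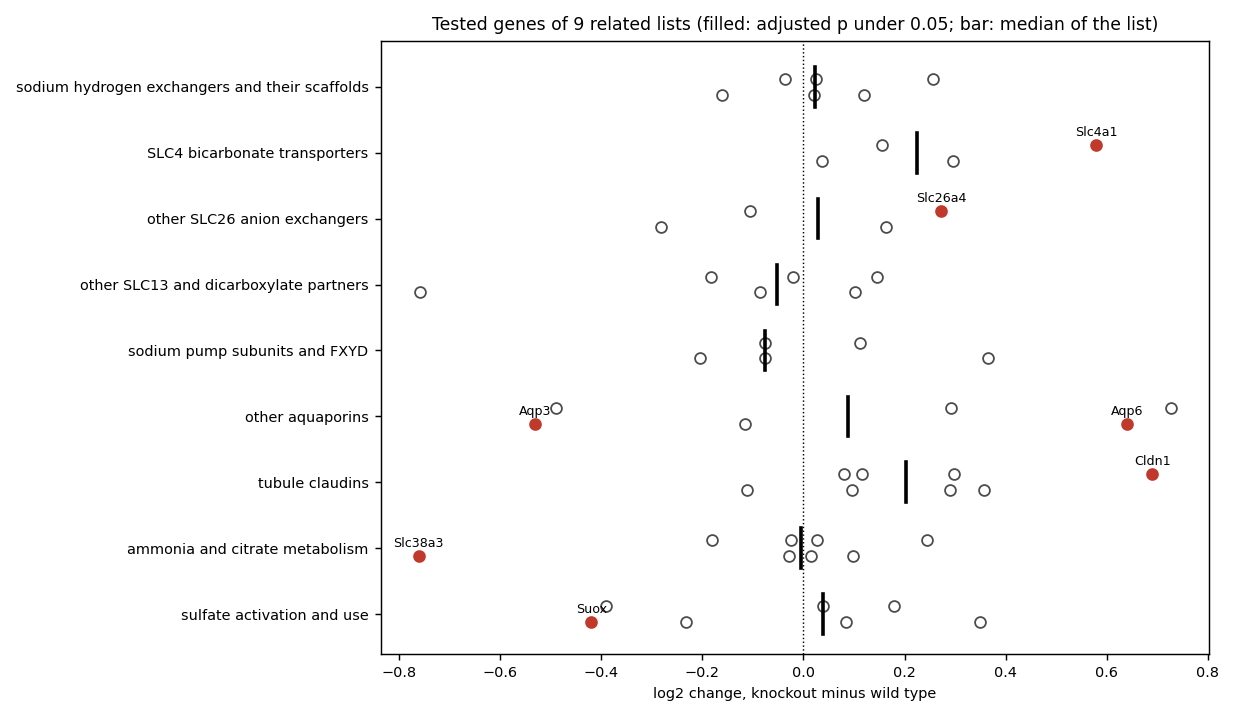
Log2 change, knockout minus wild type, of the 54 tested genes of 9 related lists, with the median of each list as a vertical bar. Filled points passed an adjusted p of 0.05: Slc4a1, Slc26a4, Aqp6 and Cldn1 lie to the right of 0 and Aqp3, Slc38a3 and Suox to the left.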

How the data were processed

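The arrays were hybridised with biotin-labelled RNA amplified from an oligo dT primer, per the labels' protocols. The deposited intensity values are linear MAS5 signals per probe set, for which the submitters' processing notes name GCOS 1.4 and MAS5. The scaling target and detection calls are not given in the sources used here. The deposited array records are text without measurements and were read for pool, solution lot and fluidics station.

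Of the probe sets, 64 controls were left out. Signals, all above 0, were turned to log2, and probe sets whose mean reached the median over probe sets (a signal of 41.9) were tested, which kept 22519 of 45037. Annotation gives 1 symbol to 34945 probe sets, several to 932 and none to 9160, and only the first were named. Knockout was compared with wild type with limma 3.58.1 in R 4.3.3 (lmFit, eBayes with an intensity trend, two-sided), with Benjamini-Hochberg adjustment over all tested probe sets at 0.05. Fold changes are ratios of geometric means. The fit was tested on simulated data. Tables and plots used Python 3.11.15, pandas 2.3.3, numpy 2.4.6, scipy 1.17.1 and matplotlib 3.10.9.

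The members and lists were chosen with earlier results of these data known. Named are all members, up to 3 genes past the threshold with the smallest p of each related list, Clcn5 and the 5 genes most like the member of smallest p. Other genes were named after their values were seen. Arrays of 1 genotype are named biological replicates in those records, so p-values measure the spread between RNA pools. With 3 arrays a group, their number limits precision. The array numbers did not pair the samples: the deviations of same-numbered arrays from their group means correlated at 0.0078, 0.039 and −0.042. Alternatives changed the scale, the normalization, the filter, the unit of the test, the variance model and the blocks, and left out each array in turn.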

Additional observations from a re-analysis of the deposited data

How the results depend on the processing

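Of 296 recomputed log2 changes of the 20 tested member probe sets under 16 alternatives, 262 kept their direction and their side of the threshold, 14 lost the call, 2 gained one and 18 changed sign. The count of changed probe sets over the whole array, 1071, was 615 without an intensity trend and 646 within station 1, and 689 genes passed when probe sets were averaged. It was 663 to 1022 with 1 array left out, lowest without wild type array 1. The count of member probe sets, 2, was 1 without a filter on dim probe sets, 1 with 1 probe set per gene, 1 with the station as a block, 0 within station 1 and 0 without an intensity trend. With 1 array left out it was 0 to 2, with 0 without knockout array 2, wild type array 1 or wild type array 3 and 1 where knockout array 3 or wild type array 2 was omitted. With the array number as a replicate block 1101 probe sets passed, and the Slc4a4 probe set 1421225_a_at was called at −0.35 (limma adjusted p = 0.0173). No other member call changed under that block. In settings with a test, signs turned for 7 probe sets, none of them called in any setting. The Slc26a1 probe set 1451239_a_at was at −0.050 within station 1, −0.15 with averaged probe sets and −0.044 to 0.071 with 1 array left out. The Slc13a3 probe set 1438377_x_at was at 0.010 within station 1 and −0.038 to 0.033 with 1 array left out, and the Slc4a4 probe set 1434096_at at −0.072 to 0.010. The Atp1b1 probe sets 1418453_a_at, 1423890_x_at and 1451152_a_at were at −0.038, −0.061 and −0.072 within station 1, and 1418453_a_at at −0.012 to 0.15 with 1 array left out. The dim Atp1b1 probe set 1455949_at was at 0.0097 with 50 added to every signal, 0.0068 after quantile normalization and −0.28 to 0.36 with 1 array left out. The cause was not tested, except that leaving out arrays or fitting 1 station uses fewer samples. The related lists had 3 to 6 higher and 2 to 4 lower genes in all settings run. Detection calls were not used, so signal over background is unknown for the dim probe sets.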
